A study of Mus musculus with 33 samples.

Results

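The genes Hebp1, Naalad2, Gatm, Lat2, Il1a, Tsc22d3 and G530011O06Rik lie outside the Batf3 locus and were among those with the largest differences between Batf3KO and wild-type microglia. They are 7 of the 54146 genes counted in the study, and of the 18534 genes that passed a filter on low counts over its 10 groups. They were chosen by their fold change in the comparison of Batf3KO with wild type, which is therefore given here as a description with no test, and they were followed through the groups in which Irf8 was deleted.

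BATF3 is a short basic leucine zipper protein that binds DNA as a pair with a JUN protein, and the pair can bind together with IRF4 or IRF8 at composite sites. It is best known for the development of the cDC1 subset of dendritic cells, where it keeps Irf8 expression on. IRF8 is a transcription factor of the myeloid lineage that microglia need for their normal identity.

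Total RNA was sequenced from microglia sorted by flow cytometry from the brains of C57BL/6 mice, which the labels give as female. In the germline Irf8 experiment, wild-type (WT) and IRF8KO mice were 3 months old, with 4 libraries each. At 9 months there were 3 libraries each of WT, IRF8KO, 5xFAD and 5xFAD/IRF8KO, where 5xFAD is a transgenic mouse model of Alzheimer's disease that forms amyloid plaques, with its transgenes under a neuronal promoter. In the Batf3 experiment, WT and Batf3-/- (Batf3KO) mice were 3 months old, with 3 libraries each. In the conditional experiment, 3 libraries of IRF8flox mice (flox) and 4 of IRF8flox mice with Cx3cr1CreERT2 (Cre) were made at 3 months. Both of these groups received tamoxifen on 5 consecutive days from postnatal day 12. The Cre driver acts in Cx3cr1-expressing cells, the line also carries Rosa26LSL-EYFP, and the study sorted YFP-positive microglia from it; how the flox libraries were sorted is not given in the sources used here.

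Levels are given as CPM, in which each library's counts are scaled to the same total, with TMM scaling over all 33 libraries, and a fold change is a log2 value from the fit of its comparison. A gene is said to have risen or fallen where edgeR's quasi-likelihood test gave an adjusted p under 0.05 over all genes tested. Libraries held 605376 to 18357762 counts in genes, with the lowest in the third replicate of WT at 9 months. The labels do not say that replicates are separate animals, and p-values then measure only the spread between these libraries. In bulk RNA, fewer cells of a type and less RNA per cell cannot be told apart. Summed microglial markers (12 genes) took 6.70 to 6.85% of counts in WT at 9 months, against 0.407 to 0.983% in IRF8KO, and all 12 were detected in both. Summed neutrophil markers (13 genes) took 0.853 to 5.38% in WT of the 3-month Irf8 experiment, against 7.61 to 16.5% in its IRF8KO libraries. They took, at 9 months, at most 0.000330% in WT and 0.000207% in 5xFAD, against 6.46 to 9.04% in IRF8KO and 8.22 to 14.6% in 5xFAD/IRF8KO, and 8 of the 13 were at 0 in every WT library. Summed monocyte markers (6 genes) were at most 0.252% in any WT or 5xFAD library of these groups and 0.554 to 1.60% in the groups with germline loss of Irf8. Most of that share was Chil3, with 224615 counts in IRF8KO at 9 months, ahead of Ly6c2 with 10982. Ccr2 held 15 counts in WT at 9 months and 1 in IRF8KO, while every other gene of the list held more in IRF8KO. In the 3-month Irf8 experiment Vcan (85 and 24 counts) and Fn1 (308 and 180) were lower in IRF8KO, and the others higher. The part of these other cells in the results on Irf8 was not tested. In the Batf3 experiment the neutrophil list reached no more than 0.000516% and the microglial list took 7.13 to 7.41% in all 6 libraries.

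Transcripts of 4 Y-linked genes were found in every library of WT, IRF8KO and 5xFAD/IRF8KO mice, and in replicate 3 of 5xFAD, although the labels say female. They were at 0 in the Batf3 experiment and at most 0.101 CPM in the conditional experiment. Their level ran at 3 months from 7.81 to 107 CPM in WT, below the 118 to 161 CPM of IRF8KO. The 9-month libraries ran from 275 to 307 CPM in WT, 4.63 to 149 CPM in IRF8KO and 230.3 to 269 CPM in 5xFAD/IRF8KO. In 5xFAD replicates 1 and 2 Y-linked transcripts were at 0 and X-linked Xist was at 76.2 and 104 CPM. IRF8KO at 9 months reached 184 CPM of Xist and 5xFAD/IRF8KO 39.5 CPM, against at most 6.07 CPM in these WT libraries. In each germline Irf8 comparison, and in 5xFAD against WT, the groups did not overlap in Y-linked level. That level, and any part of sex, therefore cannot be told apart from genotype there, including for X-linked Tsc22d3 and G530011O06Rik.

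Batf3 itself was at 24.7, 27.7 and 23.1 CPM in the WT libraries of its own experiment and at 0.508, 0.429 and 0.500 CPM in Batf3KO. Irf8 was at 1154, 1071 and 934 CPM in those WT libraries and at 944, 906 and 1026 CPM in Batf3KO, so that the groups overlapped. The targeted gene Irf8 was at 253 to 333 CPM in WT at 3 months, against 104 to 185 CPM in IRF8KO, a fall of 1.12 on the log2 scale (adjusted p = 0.0415). At 9 months it fell by 3.04 in IRF8KO (adjusted p = 0.00152) and by 2.79 in 5xFAD/IRF8KO (adjusted p = 0.00256). Reads over the undeleted parts of the gene are included in these values.

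Batf3 fell with germline loss of Irf8. At 3 months it was at 70.1, 29.8, 20.02 and 24.5 CPM in WT and at 2.06, 0, 1.24 and 0.364 CPM in IRF8KO, with no overlap, and it fell by 5.33 in log2 terms (SE 0.89, adjusted p = 0.00543). At 9 months it was at 18.4, 15.7 and 14.5 CPM in WT, 25.2, 22.2 and 25.4 CPM in 5xFAD, and 0 counts in all libraries of IRF8KO and 5xFAD/IRF8KO. Against a floor of 3 counts over the group, Batf3 was at least 133-fold lower in IRF8KO and at least 277-fold lower in 5xFAD/IRF8KO.

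Of the 7 genes, 6 passed the filter at 3 months, and 3 of those were called between IRF8KO and WT: Hebp1 and G530011O06Rik fell and Tsc22d3 rose. Over all genes tested, 7.39% were called, 4.15% higher and 3.24% lower. At 9 months all 7 passed the filter, and 4 were called: Naalad2, Lat2 and G530011O06Rik fell and Tsc22d3 rose, beside 28.3% of all genes (19.6% higher and 8.68% lower). Between 5xFAD/IRF8KO and 5xFAD, Naalad2, Lat2 and G530011O06Rik fell, beside 27.8% of all genes (18% higher and 9.72% lower). In the Batf3 comparison, where the genes were chosen, 3.83% of all genes were called (1.41% higher and 2.42% lower).

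Read by direction, Naalad2, Lat2 and Tsc22d3 were each called in the direction of their Batf3KO difference in 2 of the 3 germline Irf8 comparisons, Hebp1 in 1, and Gatm and Il1a in 0. Il1a had an unadjusted p under 0.05 in 2 of them (0.0155 at 3 months and 0.0223 in 5xFAD/IRF8KO), where DESeq2 called it, and Gatm had none under 0.05. G530011O06Rik, which was higher in Batf3KO, was called lower in all 3. The Batf3KO and Irf8 comparisons share no libraries.

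**Figure D1:**
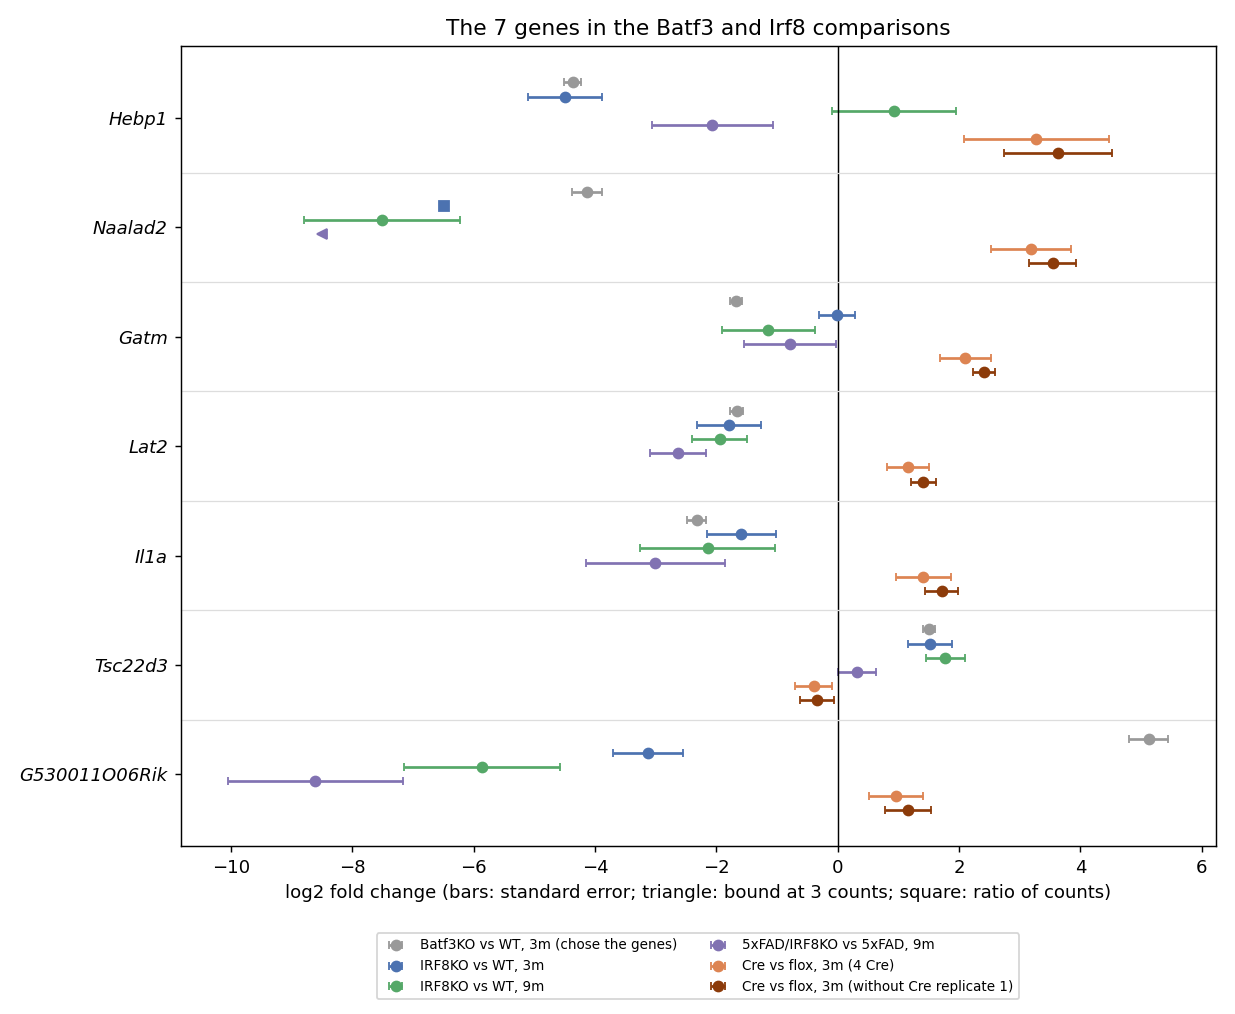
Log2 fold change (x axis) of each of the 7 genes in the Batf3KO comparison that chose them (grey), the 3 germline Irf8 comparisons and the conditional comparison with and without the Cre replicate 1 library; bars are standard errors. G530011O06Rik lies at 5.12 in Batf3KO and at -3.12, -5.86 and -8.61 with germline loss of Irf8, and the first 5 genes lie below 0 in Batf3KO and above 0 in the conditional comparison.

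Hebp1 encodes a small heme-binding protein of the cytosol whose amino-terminal peptide is a ligand of a formyl peptide receptor. The gene (ENSMUSG00000042770.8) spans chr6:135137522-135198022 on the minus strand of GRCm38. In the Batf3 experiment it was at 150.3, 147 and 123 CPM in WT and at 7.36, 6.92 and 5.34 CPM in Batf3KO, a log2 difference of -4.37 (SE 0.14). That was the third lowest fold change among 9623 genes with at least 5 CPM in 1 of the groups, after Gm16118 and Batf3 itself.

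At 3 months Hebp1 was at 164, 78.5, 43.0 and 41.0 CPM in WT and at 3.00, 5.80, 1.91 and 4.73 CPM in IRF8KO. The lowest WT library stood above the highest IRF8KO library, and Hebp1 fell by 4.49 in log2 terms (SE 0.61, adjusted p = 0.00220). At 9 months the WT libraries were themselves low, at 1.71, 3.40 and 4.15 CPM, and IRF8KO was at 1.28, 4.23 and 13.3 CPM. The groups overlapped and the log2 difference was 0.93 (SE 1.02, adjusted p = 0.544). The 2 Irf8 effects differed: the one at 9 months minus the one at 3 months was 5.55 on the log2 scale (adjusted p = 0.00255). Hebp1 was the only one of the 7 genes called in that test of the difference, beside 23.5% of all genes (17.8% higher and 5.73% lower), and age and experiment cannot be told apart in it.

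In 5xFAD at 9 months Hebp1 was at 32.96, 39.2 and 62.2 CPM, each above every WT library of that age. The log2 difference from WT was 3.84 (adjusted p = 0.117) in the fit of the 4 groups. In 5xFAD/IRF8KO it was at 5.09, 2.43 and 26.5 CPM, lower than 5xFAD in each library, with a log2 difference of -2.06 (SE 0.99, adjusted p = 0.144). Without replicate 3 of 5xFAD/IRF8KO the difference was -3.68 (adjusted p = 0.0240). WT libraries of the 3 experiments thus spanned a wide range, with a mean of 140.1 ± 14.6 CPM (SD, n = 3) in the Batf3 experiment, 81.6 ± 57.5 CPM (SD, n = 4) in the Irf8 experiment at 3 months and 3.09 ± 1.25 CPM (SD, n = 3) at 9 months.

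Naalad2 encodes a membrane peptidase that can cleave the dipeptide transmitter N-acetylaspartylglutamate. The gene (ENSMUSG00000043943.14) spans chr9:18321951-18402995 on the minus strand. It was at 18.7, 21.2 and 25.4 CPM in WT and at 1.08, 0.919 and 1.56 CPM in Batf3KO, a log2 difference of -4.13 (SE 0.25). The next gene in that order was Plxnd1, at -3.91, which is not among the 7.

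Naalad2 was at or near 0 counts in mice with germline loss of Irf8. At 9 months it was at 49.7, 39.1 and 43.6 CPM in WT and at 0, 0 and 0.739 CPM in IRF8KO, a fall of 7.51 on the log2 scale (SE 1.28, adjusted p = 0.00183). In 5xFAD it was at 39.8, 17.4 and 26.3 CPM, and in 5xFAD/IRF8KO no library had a count, which is at least 362-fold lower (adjusted p = 0.000684). At 3 months it did not pass the filter: WT was at 1.66, 15.5, 10.5 and 1.82 CPM, and IRF8KO at 0.187, 0.415, 0 and 0 CPM. The groups did not overlap there, and the ratio of summed counts, WT over IRF8KO, was 90.1 (95% interval 30.8 to 437, counting error only).

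The 250 bases upstream of the RefSeq starts (GRCm38.p6) of the pair of these genes with the lowest fold change in Batf3KO are shown with those of Il1a, whose window held the one match found. They are printed in lower case from 5′ to 3′, with any match to the AP-1 motif in capitals. RefSeq windows were matched for 6 of the 7 genes, all but Lat2, and for Naalad2 the first of 2 listed starts is printed. All 3 lie on the minus strand, at chr6:135168216-135168465 for Hebp1, chr9:18397539-18397788 for Naalad2 and chr2:129309973-129310222 for Il1a.
Hebp1: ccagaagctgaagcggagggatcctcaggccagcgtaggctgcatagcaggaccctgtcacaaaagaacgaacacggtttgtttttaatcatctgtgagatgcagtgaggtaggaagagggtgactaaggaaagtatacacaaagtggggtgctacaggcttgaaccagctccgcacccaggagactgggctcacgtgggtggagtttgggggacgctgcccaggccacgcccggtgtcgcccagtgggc
Naalad2: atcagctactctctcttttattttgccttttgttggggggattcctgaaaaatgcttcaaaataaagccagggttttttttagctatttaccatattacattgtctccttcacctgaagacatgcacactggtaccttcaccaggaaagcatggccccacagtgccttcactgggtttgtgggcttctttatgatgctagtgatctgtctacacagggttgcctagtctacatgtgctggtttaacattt
Il1a: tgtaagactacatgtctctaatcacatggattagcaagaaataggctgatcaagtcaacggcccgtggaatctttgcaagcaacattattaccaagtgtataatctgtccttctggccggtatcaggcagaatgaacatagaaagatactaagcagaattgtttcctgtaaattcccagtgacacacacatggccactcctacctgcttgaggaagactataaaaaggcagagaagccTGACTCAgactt

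In the windows from 250 bases before to 50 after each start, TGACTCA, the AP-1 motif that BATF and JUN proteins bind, was searched on both strands and was present in 5.2% of 32817 mouse windows. Among the 6 genes with a window it was found once, in Il1a, at bases -12 to -6 from the start. The CRE-spaced form TGACGTCA (1.79% of windows), the ISRE core of GAAA and another GAAA after any 2 bases (3.43%), the ETS-IRF composite of GGAA and GAAA after any 2 bases (2.72%), the glucocorticoid receptor motif (0.475%) and 4 forms of an IRF core beside the AP-1 letters (0.0366 to 0.0548% of windows) had no match in the windows of these 6 genes. A composite with the AP-1 letters always overlaps an AP-1 match. These matches describe letters in these windows and nothing more.

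Gatm encodes the amidinotransferase of the first and rate-limiting step of creatine synthesis. The gene (ENSMUSG00000027199.14) spans chr2:122594467-122611303 on the minus strand. It was at 138, 143 and 136 CPM in WT and at 44.2, 43.4 and 37.9 CPM in Batf3KO, a log2 difference of -1.68 (SE 0.10). With loss of Irf8 no such difference was seen at 3 months: WT was at 140, 235, 232 and 153 CPM, IRF8KO at 214, 231, 172 and 172 CPM, and the log2 difference was -0.0064 (SE 0.30, adjusted p = 0.994).

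At 9 months Gatm varied widely between replicates of WT (SD 376 CPM) and 5xFAD (SD 731 CPM). It varied less in IRF8KO (SD 72.4 CPM) and 5xFAD/IRF8KO (SD 63.9 CPM). It was at 828, 793 and 161 CPM in WT and at 225, 370 and 305 CPM in IRF8KO, a log2 difference of -1.14 (SE 0.76, adjusted p = 0.293). In 5xFAD it was at 184, 145 and 1430 CPM and in 5xFAD/IRF8KO at 346, 302 and 428 CPM, a log2 difference of -0.79 (adjusted p = 0.485). The low WT library and the high 5xFAD library are both replicate 3, the shallowest of their groups. That 5xFAD library was also the only one of its group with Y-linked transcripts, at 156 CPM. Without the 5xFAD one the difference from 5xFAD/IRF8KO turned to 0.92 (adjusted p = 0.275).

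Lat2 encodes a transmembrane adaptor, also called NTAL or LAB, that is phosphorylated when ITAM-bearing receptors signal in myeloid cells, mast cells and B cells. The gene (ENSMUSG00000040751.12) spans chr5:134600022-134615025 on the minus strand. It was at 145, 137 and 112 CPM in WT and at 38.3, 37.6 and 43.7 CPM in Batf3KO, a log2 difference of -1.66 (SE 0.11). Lat2 had the tightest WT replicates of the 7 genes at 9 months, at 81.3, 76.9 and 76.8 CPM, and IRF8KO was at 35.8, 18.7 and 14.0 CPM. It fell by 1.95 in log2 terms (SE 0.45, adjusted p = 0.00766).

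In 5xFAD Lat2 was at 135, 127 and 138 CPM and in 5xFAD/IRF8KO at 18.5, 39.2 and 11.9 CPM. It fell by 2.63 in log2 terms (SE 0.46, adjusted p = 0.00143), and the groups did not overlap at 9 months in either background. At 3 months WT was at 151, 99.9, 77.4 and 22.7 CPM and IRF8KO at 13.7, 23.4, 34.9 and 35.1 CPM, so that 1 WT library lay within the IRF8KO range. The log2 difference there was -1.79 (SE 0.53, adjusted p = 0.0589), and without WT replicate 4 it was -2.11 (adjusted p = 0.0151).

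Il1a encodes interleukin 1 alpha, a cytokine that signals through the type I interleukin 1 receptor. The gene (ENSMUSG00000027399.1) spans chr2:129299610-129309972 on the minus strand. It was at 77.0, 91.3 and 95.6 CPM in WT and at 20.9, 15.2 and 14.8 CPM in Batf3KO, a log2 difference of -2.32 (SE 0.16). At 3 months it was at 81.1, 100.2, 38.7 and 16.0 CPM in WT and at 13.3, 27.2, 30.5 and 11.8 CPM in IRF8KO, with 1 WT library within the IRF8KO range. The log2 difference was -1.59 (SE 0.57, adjusted p = 0.107), and -1.91 (adjusted p = 0.0362) without WT replicate 4. Il1a was also called there with no filter on low counts (-1.68, adjusted p = 0.0139) and with DESeq2 (-1.66, adjusted p = 0.0342).

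At 9 months every WT library of Il1a, at 97.0, 119 and 103 CPM, lay above every IRF8KO library, at 19.1, 45.0 and 16.0 CPM. The log2 difference was -2.14 (SE 1.12, adjusted p = 0.173) in the fit of 4 groups. It was called with only the 2 groups compared (-2.06, adjusted p = 0.0132) and with no filter on low counts (-2.20, adjusted p = 0.00489). In 5xFAD it was at 188, 196 and 186 CPM, and in 5xFAD/IRF8KO at 57.8, 19.5 and 0 CPM. That difference was -3.00 (SE 1.15, adjusted p = 0.0706), and it was called with no filter (adjusted p = 0.000114), with DESeq2 (adjusted p = 0.0233) and with 1 model of all 10 groups (adjusted p = 0.0109). Replicate 3 of 5xFAD/IRF8KO had no count of Il1a at a depth of 11723815 counts, and without it the log2 difference was -2.42 (adjusted p = 0.00837). Without replicate 1 the difference was -4.39 (adjusted p = 0.0360).

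Tsc22d3 encodes GILZ, the glucocorticoid-induced leucine zipper, a transcript that glucocorticoids raise in many cell types. The gene (ENSMUSG00000031431.13) spans chrX:140539528-140600659 on the minus strand. It was at 122, 150 and 128 CPM in WT and at 368, 327 and 403 CPM in Batf3KO, a log2 difference of 1.51 (SE 0.10). At 3 months it was at 458, 662, 443 and 243 CPM in WT and at 1312, 1363, 1207 and 1554 CPM in IRF8KO. All 4 IRF8KO libraries were higher than every WT library, and Tsc22d3 rose by 1.52 in log2 terms (SE 0.36, adjusted p = 0.0269).

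That call at 3 months was lost when any 1 of the 4 IRF8KO libraries was left out (adjusted p from 0.0567 to 0.0821, log2 difference 1.46 to 1.59). It was also lost with the level of Y-linked transcripts in the model (1.65, adjusted p = 0.0713). At 9 months Tsc22d3 was at 274, 249 and 191 CPM in WT and at 1008, 829 and 908 CPM in IRF8KO, and it rose by 1.78 (SE 0.32, adjusted p = 0.00145). In 5xFAD it was at 696, 574 and 548 CPM, above every WT library, with a log2 difference from WT of 1.27 (adjusted p = 0.0601). In 5xFAD/IRF8KO it was at 759, 1222 and 459 CPM, which overlapped 5xFAD, and the log2 difference was 0.32 (SE 0.31, adjusted p = 0.489). The Irf8 effects with and without 5xFAD differed by -1.46 on the log2 scale (edgeR, adjusted p = 0.147), which DESeq2 called (-1.47, adjusted p = 0.0155).

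G530011O06Rik is a long noncoding RNA gene (ENSMUSG00000072844.6) at chrX:169975043-169978917 on the minus strand, a processed transcript of 2 exons. Its exons overlap those of Mid1 on the other strand, and the counts do not use strand. Exons of Hebp1, Naalad2, Lat2 and Il1a also overlap those of genes on the other strand. G530011O06Rik was at 1.30, 1.77 and 1.57 CPM in WT of the Batf3 experiment and at 43.6, 33.2 and 79.9 CPM in Batf3KO, a log2 difference of 5.12 (SE 0.33). Of the 9623 genes, Ifi202b, which had no count in WT, was the 1 with a higher fold change, and Clec7a came next at 2.79.

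WT libraries of the other experiment held far more of G530011O06Rik, at 41.4, 33.2, 21.8 and 13.6 CPM at 3 months and at 145, 106 and 123 CPM at 9 months. IRF8KO was at 2.62, 2.90, 3.89 and 3.82 CPM at 3 months, a fall of 3.12 on the log2 scale (SE 0.58, adjusted p = 0.00881). At 9 months IRF8KO was at 7.06, 0 and 0.123 CPM, a fall of 5.86 (SE 1.28, adjusted p = 0.00521). The groups did not overlap at either age. In 5xFAD it reached 343, 447 and 339 CPM, the highest of the 10 groups, and in 5xFAD/IRF8KO it was at 0, 0.811 and 2.23 CPM. That fall was 8.61 (SE 1.44, adjusted p = 0.00100). The Irf8 effect at 9 months minus that at 3 months was called for this gene when IRF8KO replicate 1 at 9 months was left out (-7.54, adjusted p = 0.000266) and not otherwise with 1 library left out.

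The X and Y chromosomes each carry a RefSeq start of G530011O06Rik, and a stretch of 60 bases upstream of both is printed to show how alike the copies are, with the 1 base that differs in capitals. The first is chrX:169979104-169979163 and the second chrY:90755241-90755300, both on the minus strand.
G530011O06Rik on X: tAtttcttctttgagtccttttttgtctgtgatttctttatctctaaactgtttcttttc
G530011O06Rik on Y: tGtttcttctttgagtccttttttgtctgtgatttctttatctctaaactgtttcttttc
Over 250 bases the upstream windows were 98.8% identical, with 3 edits. The summary lines left out of each file include one for reads that map to several places. Reads that fit both copies equally would fall there, whether or not a Y chromosome is present. The value of this gene is therefore uncertain in all groups. Y-linked transcripts were at 0 in all 6 libraries of the Batf3 experiment. With their level as a covariate G530011O06Rik remained called in the 3 germline Irf8 comparisons. The groups of each comparison did not overlap in that level, so this fit cannot separate it from loss of Irf8.

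**Figure D2:**
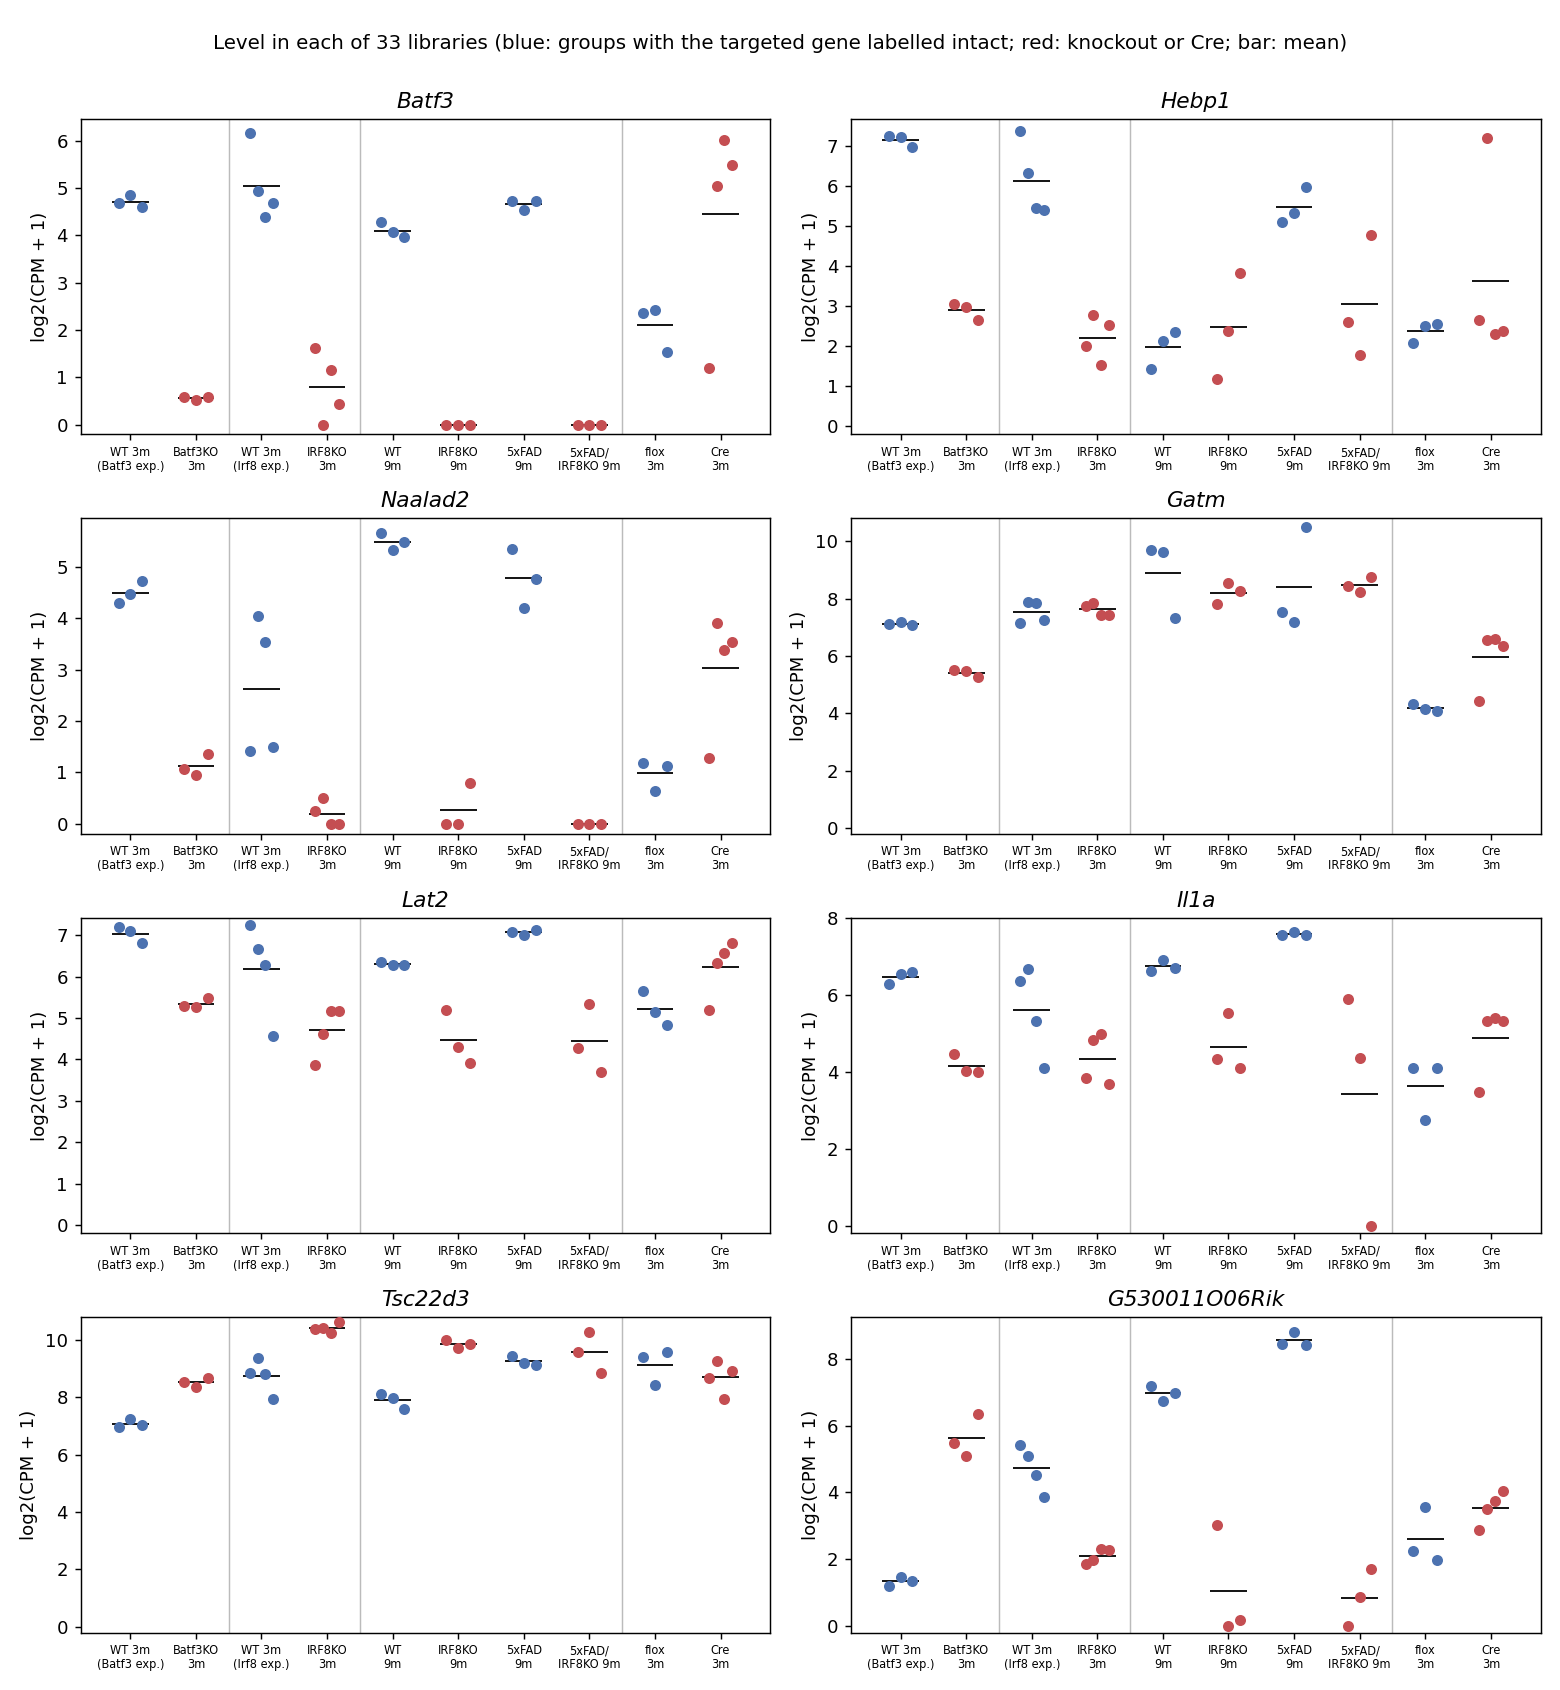
Level of Batf3 and the 7 genes in each of the 33 libraries as log2(CPM + 1), 1 point per library, with groups along the x axis and a bar at each group's mean; blue marks groups whose targeted gene is labelled intact and red marks knockout or Cre. Naalad2 is at 0 counts in all libraries of 5xFAD/IRF8KO, and 1 Cre library stands at 145 CPM in the panel of Hebp1.

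In the conditional experiment the libraries did not all follow their labels. Irf8 was at 1055, 1186 and 953 CPM in flox and at 412, 346 and 481 CPM in Cre replicates 2 to 4, while the library labelled Cre replicate 1 held 1126 CPM, a level of the flox range. Batf3 was at 4.16, 4.36 and 1.89 CPM in flox, at 32.1, 63.9 and 43.8 CPM in Cre replicates 2 to 4, and at 1.31 CPM in the library labelled Cre replicate 1. Results are given with and without that library. The mean of Batf3 was 3.47 CPM in flox, against 16.2 to 36.1 CPM in the WT and 5xFAD groups. Of the 10 groups, flox had the lowest mean of Gatm (17.4 CPM) and of Il1a (12.6 CPM). Its means of Hebp1 (4.25 CPM), Naalad2 (0.999 CPM) and Lat2 (37.0 CPM) were below those of Batf3KO. Hebp1 was lower still in WT at 9 months (3.09 CPM). The cause of these low levels in flox was not tested.

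With all 4 Cre libraries, edgeR called 0 of the 7 genes between Cre and flox, beside 0% of all genes. At an unadjusted p under 0.05 there were 5 of the 7 and 1407 genes in all, and DESeq2 called 3 of the 7 and 164 genes. Without the library labelled Cre replicate 1, 5 of the 7 were higher in Cre, beside 6.24% of all genes (3.74% higher and 2.5% lower). These were Hebp1, Naalad2, Gatm, Lat2 and Il1a, the 5 that were lower in Batf3KO, and in the same fit Batf3 was higher by 3.78 and Irf8 lower by 1.32 on the log2 scale.

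Gatm was at 19.2, 16.9 and 16.1 CPM in flox and at 93.8, 94.5 and 80.2 CPM in Cre replicates 2 to 4. It rose by 2.41 on the log2 scale without the library labelled Cre replicate 1 (adjusted p = 1.12191e-08), which held 20.4 CPM. Naalad2 was at 1.27, 0.545 and 1.18 CPM in flox and at 13.9, 9.48 and 10.5 CPM in those 3 Cre libraries, and it rose by 3.54 (adjusted p = 2.42656e-06). Both genes thus separated the 3 Cre libraries from flox with a wide gap, and in both the library labelled Cre replicate 1 lay close to flox.

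Lat2 was at 49.2, 34.2 and 27.5 CPM in flox and at 79.4, 93.9 and 112 CPM in the 3 Cre libraries, and it rose by 1.41 (adjusted p = 0.000104). Il1a was at 16.0, 5.67 and 15.9 CPM in flox and at 38.6, 41.1 and 39.1 CPM there, and it rose by 1.71 (adjusted p = 0.000258). Hebp1 was at 3.23, 4.69 and 4.84 CPM in flox and at 145, 3.97 and 4.23 CPM in Cre replicates 2 to 4. Its call (3.64, adjusted p = 0.0149) rested on Cre replicate 2, since the other 2 libraries lay in the flox range. With Cre replicate 2 left out in place of replicate 1, the log2 difference was 0.095 (adjusted p = 0.978).

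Tsc22d3 and G530011O06Rik, the pair that was higher in Batf3KO, were not called. Tsc22d3 was at 669, 343 and 749 CPM in flox and at 603, 243 and 484 CPM in Cre replicates 2 to 4, a log2 difference of -0.35 (adjusted p = 0.654). G530011O06Rik was at 3.69, 10.8 and 2.95 CPM in flox and at 10.3, 12.3 and 15.5 CPM in Cre, a log2 difference of 1.16 (adjusted p = 0.0823).

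The conditional effect was compared with the germline effect at 3 months in 1 model, as Cre minus flox less IRF8KO minus WT. All 7 genes were called, beside 7.04% of all genes (4.37% higher and 2.68% lower). Without the library labelled Cre replicate 1 there were 6, beside 6.63% (3.99% higher and 2.64% lower). Gatm differed by 2.20, Lat2 by 3.03, Il1a by 3.06, G530011O06Rik by 4.16, Hebp1 by 7.83 and Tsc22d3 by -1.83 on the log2 scale. The value of Naalad2 rests on 3 counts in IRF8KO and depends on the prior count. The 2 experiments differ in sort, treatment and genotype of the controls, which cannot be told apart from the kind of deletion, and leaving out 1 flox library left 3 or 4 of the 7 called. With replicate numbers as a block, 0 were called. The check of pairing was mixed here. Of the WT libraries, 3 of 4 deviated most like the same number in IRF8KO, and of the flox libraries 0 of 3 did so with Cre.

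**Figure D3:**
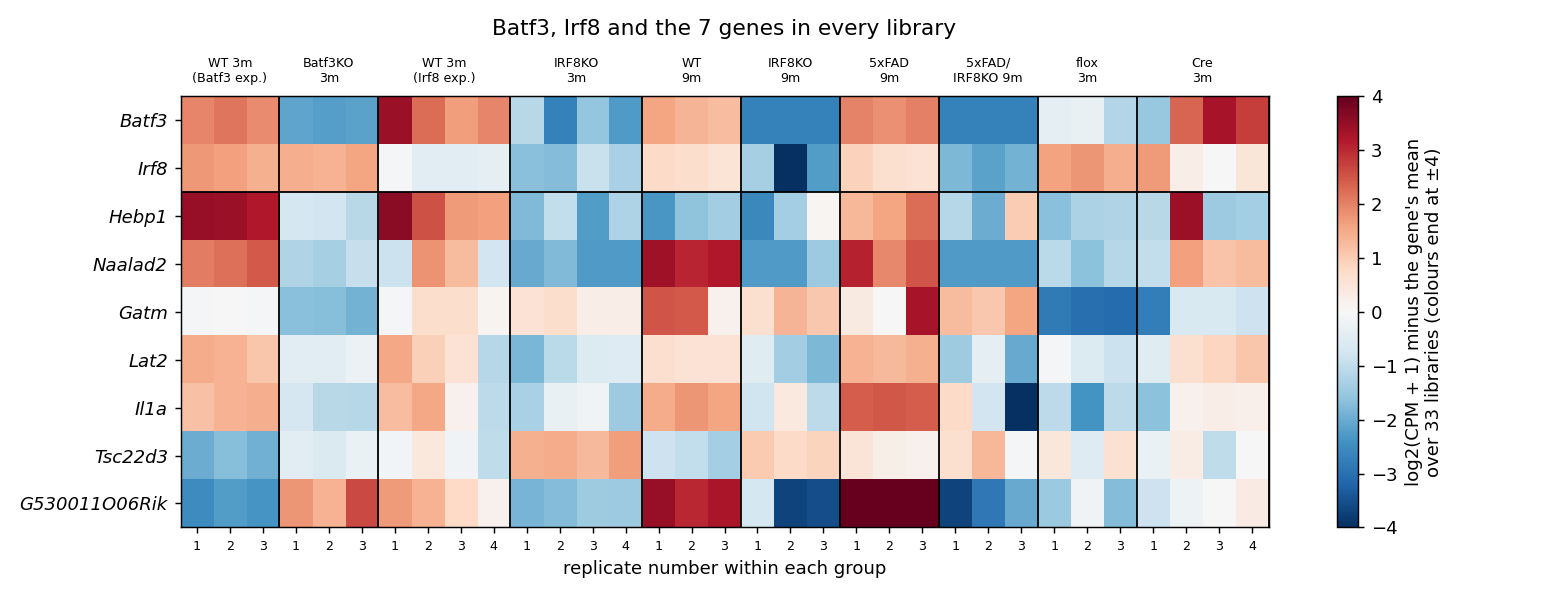
Each gene's log2(CPM + 1) less its mean over all 33 libraries, with libraries as columns by group and replicate and Batf3, Irf8 and the 7 genes as rows; red is above and blue below the mean, and colours end at 4 in either direction. Naalad2 and Lat2 are below their means in all 3 libraries of IRF8KO at 9 months, and the library labelled Cre replicate 1 resembles flox in the rows of Batf3, Irf8, Naalad2 and Gatm.

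In 5xFAD against WT at 9 months, 0 of the 7 genes were called by edgeR in the fit of 4 groups, beside 1.99% of all genes (1.81% higher and 0.178% lower). There 2 of the 7 and 1637 of all 14604 genes had an unadjusted p under 0.05. DESeq2 called 1 of the 7 and 900 genes in all, and a fit of the 2 groups alone called 6 and 4546. In the test of the interaction between 5xFAD and loss of Irf8, 0 of the 7 were called, beside 0.438% of all genes (0.192% higher and 0.247% lower). At an unadjusted p under 0.05 there were 1 of the 7 and 2146 genes in all. DESeq2 called 1 of the 7, Tsc22d3, and 904 genes in all.

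Per kilobase of exons, the mean level in WT of the Irf8 experiment at 3 months was highest for Tsc22d3, at 104 ± 39.4 CPM per kilobase (SD, n = 4), followed by Gatm at 63.3 ± 16.8. Lat2 was at 33.5 ± 20.3, Il1a at 29.9 ± 19.5, Hebp1 at 22.0 ± 15.5, G530011O06Rik at 11.6 ± 5.15 and Naalad2 at 1.55 ± 1.44 CPM per kilobase in the same libraries. In WT of the Batf3 experiment Lat2 was at 50.2 ± 6.53, Gatm at 46.4 ± 1.31, Il1a at 44.6 ± 4.91 and Hebp1 at 37.8 ± 3.94 CPM per kilobase (SD, n = 3). Below them were Tsc22d3 at 30.7 ± 3.36, Naalad2 at 4.58 ± 0.712 and G530011O06Rik at 0.650 ± 0.0990 CPM per kilobase. Within each gene the groups were ordered by their mean level. For Tsc22d3 the order ran from IRF8KO at 3 months (1359 ± 145 CPM, SD, n = 4) and IRF8KO at 9 months (915 ± 89.7 CPM, SD, n = 3), whose ranges did not overlap, down to WT of the Batf3 experiment (133 ± 14.6 CPM, SD, n = 3). For G530011O06Rik it ran from 5xFAD (376 ± 61.3 CPM, SD, n = 3) and WT at 9 months (125 ± 19.8 CPM, SD, n = 3), which did not overlap, to 5xFAD/IRF8KO (1.01 ± 1.13 CPM, SD, n = 3).

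Other genes of the pathways around these 7 were read from lists that leave the 7 out. In the heme list of synthesis, breakdown and peptide-receptor genes, around Hebp1, 1 of 18 tested rose in IRF8KO at 3 months. It was Alas1, the first enzyme of heme synthesis, from 55.2 ± 16.5 to 239 ± 113 CPM (SD, n = 4 each; log2 change 2.05, adjusted p = 0.0107). At 9 months 6 of 17 rose and 1 fell, beside a list median of 0.87 and a median of 0.25 over all genes; Fech, the last enzyme, rose by 4.16 and Ppox fell by 1.45 on the log2 scale. In 5xFAD/IRF8KO 6 of 17 rose and 1 fell: Fech rose by 2.77, and Hmox2, a heme oxygenase, fell by 1.57. Alas2, the red-cell form of the first enzyme, was at 2.14 ± 2.01 CPM in WT and 3404 ± 3689 CPM in IRF8KO at 9 months (SD, n = 3 each). Red blood cell markers (7 genes) took 2.39 to 15.8% of counts in those IRF8KO libraries and at most 0.00529% in WT, and their part was not tested. In Batf3KO 1 of 16 was called higher, Hmox1 by 0.63, and 1 lower, Ppox, which fell by 0.65.

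For N-acetylaspartylglutamate, the substrate of Naalad2, 0 of 4 genes were called at 3 months and 1 of 5 rose in each germline comparison at 9 months. It was Grm3, a receptor for this transmitter, from 1.05 ± 0.917 CPM in WT to 24.3 ± 23.1 CPM in IRF8KO (SD, n = 3 each; log2 change 4.20, adjusted p = 0.0341). The median log2 change of the 5 genes tested in that comparison was 6.76, beside 0.25 over all genes. With group sums held at 3 counts or more the list median was 3.95, and no such median was taken over all genes. In Batf3KO 1 gene of the list was tested and was not called. At 9 months neuron markers (8 genes) took 0.000191 to 0.000661% of counts in WT and 0.0635 to 0.313% in IRF8KO, and astrocyte markers (7 genes) 0.0209 to 0.0218% and 0.241 to 0.293%. In 5xFAD these shares were 0.000184 to 0.000415% (neuron) and 0.02003 to 0.0263% (astrocyte). In the 5xFAD/IRF8KO libraries they were 0.0442 to 0.162% and 0.116 to 0.184%. Neuron markers at 0 in every WT library numbered 2 of 8, and their part was not tested.

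For creatine synthesis, transport and kinases, around Gatm, 0 of 4 genes were called at 3 months and 0 of 3 in Batf3KO. At 9 months Ckmt1, a mitochondrial creatine kinase, was the 1 gene called in IRF8KO, with 0 counts in WT and 38.8 ± 14.7 CPM in IRF8KO (SD, n = 3). At 3 months the order was the reverse, with 37.6 ± 23.1 CPM in WT and 11.7 ± 8.45 CPM in IRF8KO (SD, n = 4 each). The Irf8 effects at the 2 ages differed (edgeR, adjusted p = 3.2e-05), and age and experiment cannot be told apart there. In 5xFAD/IRF8KO Ckmt1 rose by 6.66 on the log2 scale, and Ckb, the brain-type creatine kinase, fell by 0.80. Oligodendrocyte markers (7 genes) took 0.0237 to 0.0273% of counts in WT and 0.721 to 1.11% in IRF8KO. On the 5xFAD background their share was 0.0204 to 0.0252% with Irf8 and 0.484 to 0.607% without it. The neuron and astrocyte shares given for Grm3 are of the same libraries, and the part of these markers was not tested.

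In the list of ITAM receptors and their signalling proteins, around Lat2, 3 of 18 rose and 2 fell at 3 months. The kinase Syk rose by 1.84 and the adaptor Lcp2 by 1.14, while Trem2, a lipid-sensing receptor of microglia, fell by 1.93 and the Fc receptor Fcgr1 fell by 2.28. At 9 months 1 of 17 rose and 7 fell in IRF8KO, with a list median of -1.05 beside 0.25 over all genes: Fcgr3 fell by 1.15 and Trem2 fell by 1.98, and Kit, the stem cell factor receptor, had 0 counts in WT and was at 48.9 ± 43.7 CPM in IRF8KO (SD, n = 3). In 5xFAD/IRF8KO 2 of 17 rose and 6 fell, among them Tyrobp, the signalling partner of TREM2, which fell by 1.54. In Batf3KO Fcer1g alone was called of 16, higher by 0.40, and Lat2 was the gene of this pathway that was chosen for its fall there.

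Around Tsc22d3, in a list of transcripts that glucocorticoids raise, 1 of 17 rose at 3 months: Fkbp5, a chaperone of the glucocorticoid receptor, by 2.29 on the log2 scale (adjusted p = 0.0118). At 9 months 5 of 16 rose and 2 fell in IRF8KO. The metallothionein Mt1 rose by 2.77 and Tsc22d1, a relative of Tsc22d3, by 4.55, while the kinase Sgk1 fell by 2.84 (adjusted p = 1.50679e-05) and Txnip fell by 1.55. The list median was 0.15 beside 0.25 over all genes, and with library totals as the scaling 4 fell. At 3 months Mt1 was instead lower in IRF8KO, at 856 ± 382 CPM against 2190 ± 1346 CPM in WT (SD, n = 4 each). So was Tsc22d1, at 33.2 ± 5.49 CPM against 65.6 ± 13.1 CPM, and neither was called there. The Irf8 effect at 9 months minus that at 3 months was called for both (Mt1 4.27, Tsc22d1 5.67). Age and experiment cannot be told apart in it. In 5xFAD/IRF8KO 4 of 16 rose and 1 fell: Dusp1 rose by 4.46 and Sgk1 fell by 2.95. In Batf3KO 4 of 15 were called higher and 1 lower, beside 3.83% of all genes; Fkbp5 was higher by 0.75 and Cebpb by 0.66, and Mt1 fell by 0.54.

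Around Il1a, in a list of interleukin 1 family ligands, receptors, inhibitors and signalling genes, 3 of 20 rose and 1 fell at 3 months. The receptor antagonist Il1rn rose from 13.4 ± 11.5 to 116 ± 23.5 CPM (SD, n = 4 each; log2 change 3.04) and Irak3, an inhibitory kinase homologue, by 2.61, while Il18 fell by 1.36. With library totals as the scaling, the fall of Il18 was not called. At 9 months 8 of 20 rose and 1 fell in IRF8KO, and the same counts were found in 5xFAD/IRF8KO; with library totals as the scaling 3 fell in each. Irak3 rose by 4.57 in IRF8KO, and in 5xFAD/IRF8KO Il1b rose by 3.34 and Il1rn by 6.16. Il1rl1, the receptor of interleukin 33, fell in both. In Batf3KO 0 of 18 were called. Summed neutrophil markers stood at 6.46% or more of counts in the IRF8KO and 5xFAD/IRF8KO libraries at 9 months and under 0.001% in their controls, and their part was not tested.

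Among 15 genes for partners and relatives of BATF3, which include Batf3 and Irf8, 14 were tested at 3 months: Fosl2 rose by 1.96, and Batf3 and Irf8 were the 2 that fell. At 9 months 2 rose and 5 fell in IRF8KO (8 fell with library totals): Id2, an inhibitor of helix-loop-helix factors, rose by 2.31 and Fosl2 by 3.09, and Jun fell by 3.87. In 5xFAD/IRF8KO 3 rose and 3 fell, and Fos was at 1.41 ± 0.551 CPM in 5xFAD and 193 ± 81.8 CPM in 5xFAD/IRF8KO (SD, n = 3 each). It was at 54.6 ± 41.8 CPM in WT at 9 months and 84.1 ± 27.0 CPM in IRF8KO, where it was not called. Fos and Jun were both called lower in 5xFAD than in WT, Jun at 45.6 ± 12.6 against 387 ± 211 CPM. Jun was not called in 5xFAD/IRF8KO against 5xFAD. The interaction of 5xFAD and loss of Irf8 was called for both (Fos 6.49, adjusted p = 0.0121, and Jun 4.46, adjusted p = 0.0339). In Batf3KO Nfil3, a leucine zipper factor of the cDC1 circuit, was higher by 0.91, and Batf3 was the 1 gene called lower. With all Cre libraries, 0 of all 15512 genes tested were called between Cre and flox. That leaves 0 in each of the 7 pathway lists and says nothing about them in particular.

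The genes whose log2 level followed each of the 7 most closely over the 33 libraries were ranked by Pearson's r among 13996 or 13997 genes, as a description. The libraries share their experiment, their depth and their mixture of cells. Naalad2 was followed most closely by Upk1b (r = 0.901) and by P2ry12 (r = 0.882), the purinergic receptor that marks resting microglia. Lat2 was nearest to Tmem100 (0.872), Duoxa1 (0.868) and F11r (0.864). Tsc22d3 was nearest to Jdp2 (0.841), a leucine zipper protein that can pair with JUN, Rgs1 (0.837) and Apoe (0.829). G530011O06Rik was nearest to 0610037L13Rik (0.827), Parp2 (0.809) and P2ry12 (0.796), Gatm to Clk4 (0.829), Mapre1 (0.825) and Tfg (0.809), and Il1a to Cd1d1 (0.805), Tmem68 (0.801) and Gpn1 (0.771). Hebp1 had no close follower, with Nudt9 first at 0.606. Over the 10 group means, at most 1 of these 3 genes was again among the nearest 3, and there Lat2 was nearest to Naalad2 (0.953), itself one of the 7, and to Batf3 (0.929).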

How the data were processed

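The 33 files hold counts of reads per gene that the authors deposited, 1 file per library. Per the labels' protocols, cDNA was made with SMART-Seq v4 and libraries with Nextera XT, read as paired ends, with no molecular identifiers mentioned; intervals and floors therefore cover counting error only. Per the submitters' processing notes, the tools were bcl2fastq, STAR 2.5.2b, Picard 2.17.11, Subread and featureCounts, with mm10; no order of steps and no annotation release is named there. The unstranded counts were used, and the 4 summary lines of each file were left out. Genes on the other strand with overlapping exons were Rfc2 (Lat2), Fam234b (Hebp1), Gm14023 (Il1a), Mid1 (G530011O06Rik) and Gm19174 (Naalad2). Over all libraries they held 23875, 18175, 710, 446 and 0 counts. Of 54146 gene identifiers, 52480 matched GENCODE M21 with the same version, and 54079 when the version was ignored. Coordinates come from that annotation, and promoter sequences from RefSeq (GRCm38.p6).

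Counts were tested with edgeR 4.0.16 (filterByExpr, TMM, quasi-likelihood fit, Benjamini-Hochberg adjustment over all genes tested, threshold 0.05) in R 4.3.3. The comparisons at 9 months shared 1 fit of 4 groups, and the others were fitted on their own groups. Alternatives were DESeq2 1.42.0, its size factors, no filter on low counts, 1 model of all 10 groups, a replicate block, only the 2 groups compared, and each library left out in turn. Library totals as the scaling and the level of Y-linked transcripts as a covariate were added after seeing the data. The fits were tested on simulated data. Floors are 3 counts over a group.

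The 7 genes and the 18 lists (7 of pathways, 11 of cell markers) were chosen with earlier results of these data known. Beyond the 7 genes, Batf3 and Irf8, the text names up to 2 called genes per pathway list, direction and comparison, those with the highest mean level, and the 3 genes most alike in level. Neighbours in the Batf3KO order were named after their values were seen.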

Additional observations from a re-analysis of the deposited data

Results flagged for a closer look

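Hebp1 in Cre replicate 2 stood apart from the other 3 Cre libraries, at 145 CPM against 3.97 to 5.25 CPM. Il1a in the library labelled Cre replicate 1 stood apart from its group in the other direction, at 10.1 CPM against 38.6 to 41.1 CPM. Chance sets apart about 1 in 20 groups by this measure, the gap to the nearest library over the range of the group.

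The effect of germline Irf8 loss on Hebp1 differed between ages by 5.55 on the log2 scale in a test of the difference (adjusted p = 0.00255). WT at 9 months was itself low, with 25 counts in total and a mean of 3.09 CPM. Age and experiment cannot be told apart in this test.

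The conditional and germline effects of Irf8 loss at 3 months differed for all 7 genes in a test of the difference. The log2 differences were 7.83 for Hebp1, 9.06 for Naalad2, 2.20 for Gatm, 3.03 for Lat2, 3.06 for Il1a, 4.16 for G530011O06Rik and -1.83 for Tsc22d3. The value of Naalad2 depends on the prior count, since IRF8KO held 3 counts of it at 3 months.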

How the results depend on the processing

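Counts of the 7 genes called changed with the processing as follows. For IRF8KO against WT at 3 months (3 called), 6 were called with no filter on low counts, 5 with DESeq2 and 5 with 1 model of all 10 groups, and 2 to 5 with 1 library left out, the 5 being without WT replicate 4. At 9 months 4 remained called in number with any 1 library left out, and in 5xFAD/IRF8KO against 5xFAD 3 to 5, the 5 being without 5xFAD/IRF8KO replicate 3. For 5xFAD against WT (0 called) the counts were 1 with no filter, 1 with DESeq2, 2 with 1 model of all 10 groups and 6 with only the 2 groups compared, and for the interaction 1 with DESeq2 (Tsc22d3). For Cre against flox (0 called) they were 5 with no filter, 3 with DESeq2 and 0 to 5 with 1 library left out, the 5 being without Cre replicate 1. For the age difference (1 called) they were 2 with no filter and 1 to 2 with 1 library left out, the 2 being without IRF8KO replicate 1 at 9 months, where G530011O06Rik was also called (-7.54). For the conditional minus germline effect (7 called) they were 3 to 7 with 1 library left out, with 4, 4 and 3 without flox replicates 1, 2 and 3. The cause was not tested.

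Signs turned for values below the threshold in the report's fits. Gatm in IRF8KO at 9 months, 1 of them, was called with no filter on low counts (-1.21, adjusted p = 0.0349). Gatm at 3 months was 0.053 with 1 model of all 10 groups, 0.013 with the replicate block, 0.080 with library totals and -0.14 to 0.13 with 1 library left out. With Y-linked transcripts as a covariate, Gatm was 0.014 in IRF8KO at 9 months, 1.21 in 5xFAD against WT and -2.04 in the interaction. With 1 library left out, Hebp1 in IRF8KO at 9 months ran from -0.36 to 1.31, Gatm in 5xFAD/IRF8KO from -1.25 to 0.92, Tsc22d3 there from -0.12 to 0.59, and Gatm in 5xFAD from -1.94 to 0.34. In the interaction Naalad2 ran from -3.71 to 0.77, Gatm from -0.096 to 2.18 and G530011O06Rik from -4.06 to 2.10. The age difference of Lat2 was 0.019 with DESeq2-type size factors, 0.019 with DESeq2 and -0.56 to 0.26 with 1 library left out, and that of Tsc22d3 was -0.24 with library totals.

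Over all genes, the fits called 970 genes at 3 months (1655 with no filter, 2049 with DESeq2, 3300 with 1 model, 488 with the Y covariate), 4136 in IRF8KO at 9 months (6836 with 1 model) and 4054 in 5xFAD/IRF8KO (6783 with 1 model, 1482 with the Y covariate). In 5xFAD they called 290 (163 with no filter, 900 with DESeq2, 806 with 1 model, 4546 with only 2 groups, 25 with library totals, 3 with the Y covariate) and in the interaction 64 (238, 904 and 1082 with no filter, DESeq2 and 1 model, 42 with library totals, 1 with the Y covariate). Between Cre and flox they called 0 (618 with no filter, 164 with DESeq2, 3 with 1 model, 952 without Cre replicate 1), for the age difference 3847 (6342 with 1 model), and for the conditional minus germline effect 1223 (2162 with DESeq2). In Batf3KO they called 503 (998 with no filter, 842 with DESeq2, 10 with 1 model).

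Library totals in place of TMM moved the median of all genes from 0.25 to -0.13 in IRF8KO at 9 months, where 56.8% in place of 69.3% of called genes were higher, and from -0.020 to 0.091 at 3 months. It moved it from 0.24 to 0.12 in 5xFAD/IRF8KO, from 0.0018 to -0.22 in 5xFAD, from -0.13 to 0.11 in the interaction, from 0.42 to -0.15 in the age difference and from 0.27 to 0.034 in the conditional minus germline effect. The share of called genes that were higher went in these from 91% to 40% in 5xFAD, from 43.8% to 83.3% in the interaction, from 75.6% to 58.7% and from 62% to 46.7%.

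Same-numbered replicates did not deviate together in every pair (correlations from -0.10 to 0.13), so the numbers were not taken to pair the samples. With the replicate block, 0 of the 7 genes were called in the conditional minus germline effect and 4 in 5xFAD/IRF8KO, where Hebp1 was -2.62 (adjusted p = 0.0444). The block called 105 genes in 5xFAD, 9 in the interaction, 293 in the conditional minus germline effect and 216 in Batf3KO.

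Depth limits Naalad2 and Batf3, which were at or near 0 counts in mice without Irf8, and all genes in replicate 3 of WT at 9 months, with 605376 counts. Summed neutrophil, monocyte and border macrophage markers stood higher in every library without germline Irf8 than in its controls. So did, at 9 months, summed red blood cell, neuron, astrocyte and oligodendrocyte markers. Y-linked transcripts differed within and between groups, and their level did not overlap between the groups of any germline Irf8 comparison.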
